A study of Mus musculus with 6 samples.

Results

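The triad is the junction at which a transverse tubule of the muscle fibre meets the sarcoplasmic reticulum, and the 10 genes described here encode proteins of this junction: *Ryr1*, *Cacna1s*, *Cacna2d1*, *Cacnb1*, *Cacng1*, *Stac3*, *Jph1*, *Jph2*, *Jsrp1* and *Trdn*. They were taken from the gene-level RNA sequencing of mouse quadriceps as the rows that carry these symbols, which gave 10 of the 27179 genes listed. All 10 passed the low-count filter. The study compared muscle depleted of the mitochondrial fission enzyme Drp1, encoded by *Dnm1l*, with control muscle. Each group had 3 libraries (control B, C and D, and miDrp1KO A, E and F). The transcriptome was read 3 weeks after *Dnm1l* deletion.

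The miDrp1KO mice carried floxed *Dnm1l* alleles and the HSA-MerCreMer transgene, a tamoxifen-inducible Cre recombinase driven by the human skeletal actin promoter, on a C57BL/6J background. Because this promoter is active in muscle fibres, *Dnm1l* stays intact in the vessels, nerves, fibroblasts and other cells that a quadriceps sample also holds. The controls, given as Control f/f in the labels, carried floxed alleles, and no Cre is named for them. Mice of both groups were given tamoxifen at 3 months of age. The methods name a normal chow and a high-fat diet, and the diet of the sequenced mice is not given in the sources used here. If the controls had no Cre, active Cre and loss of *Dnm1l* cannot be told apart in this comparison. Each library was taken as 1 sample of its group, and the p-values below measure only the spread between these libraries, which may in part be technical. The libraries were sequenced in pools, and which pool held which library is not given in the sources used here, so a pool effect was not tested.

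An action potential that runs down the transverse tubule is sensed there by the dihydropyridine receptor, a voltage-gated calcium channel, and this receptor opens the ryanodine receptor of the facing sarcoplasmic reticulum through physical contact. Calcium then leaves the reticulum and starts contraction. Junctophilins hold the facing membranes together, while triadin and other proteins of the reticulum tie the release channel to its calcium store.

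All 10 triad genes had a lower fitted level in miDrp1KO quadriceps, as did 48.0% of all genes tested, and the median of their log2 fold changes was −0.51, compared with 0.02 over the 16483 genes tested. In 7 of the 10, every miDrp1KO library lay below every control library, which was so for 10.3% of all genes tested. By edgeR's quasi-likelihood test, 5 were lower at an unadjusted p under 0.05, against a background of 6.22%, and these were *Ryr1*, *Cacna1s*, *Jph2*, *Jph1* and *Cacnb1*. None of the 10 passed the Benjamini-Hochberg adjusted threshold of 0.05, which 0.0121% of genes, 2 in all, passed in either direction. By DESeq2, 3 of the 10 passed the same adjusted threshold with lower levels (*Ryr1*, *Cacna1s* and *Jph2*), against 2.14% of the genes for which DESeq2 gave an adjusted p. The number at an unadjusted p under 0.05 was 3 without control D, 3 without miDrp1KO E and 7 without miDrp1KO A, where the share of all genes lower at this level was 2.15%, 3.91% and 8.9%. It was also 5 without control B, control C or miDrp1KO F, where that share was 3.5%, 5.45% and 4.2%. Without miDrp1KO F the set differed, as *Jph1* left it (edgeR unadjusted p = 0.0707) and *Stac3* entered (edgeR unadjusted p = 0.0478).

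Library totals ran from 13989588 to 62042255 counts in the controls and from 20028624 to 28829756 in miDrp1KO, and a triad gene had between 1567 and 277491 counts in a library, so that counting error is small beside the differences between libraries. Ribosomal RNA took 3.36% to 15.6% of control counts and 1.48% to 24.4% of miDrp1KO counts. *Dnm1l* itself stood at 156, 114 and 140.3 CPM (counts scaled to the size of the library) in controls B, C and D, compared with 70.6, 81.3 and 66.2 CPM in miDrp1KO A, E and F, with no overlap between the groups (log2 fold change −0.91 ± 0.18, SE; edgeR adjusted p = 0.362). The 12 markers of skeletal muscle were all measured, and 11 were lower and 1 higher in miDrp1KO, where 48.0% of all genes tested were lower. At an edgeR unadjusted p under 0.05, 3 of the markers were lower, against 6.22% of all genes. The summed level of the 12 markers was 258331 to 322247 CPM in the controls and 109741 to 239757 CPM in miDrp1KO. All 9 fast fibre markers were lower (131393 to 146921 against 62235 to 111405 CPM summed), and all 7 slow fibre markers were higher, although their sums overlapped (37.5 to 392 against 67.3 to 664 CPM). At the same unadjusted level, 3 of the fast and none of the slow fibre markers differed. The 5 adipocyte markers were lower, with sums of 300.6 to 421 CPM against 226 to 275 CPM. For markers of fibroblasts, macrophages, endothelium, nerve and Schwann cells, smooth muscle, heart, satellite cells and blood, the summed levels of the groups overlapped. All 6 fibroblast markers (1218 to 1714 against 1347 to 2291 CPM summed) and all 4 heart markers tested had a higher fitted level in miDrp1KO, as did 5 of 6 macrophage and 5 of 6 nerve and Schwann cell markers, 3 of 4 satellite cell, 2 of 3 blood, 2 of 5 endothelial and 1 of 5 smooth muscle markers. No marker on any list had a count of 0 in all libraries, and none passed the edgeR adjusted threshold of 0.05. The part of these shifts in the triad gene levels was not tested, and in a bulk sample fewer fibres and less RNA per fibre cannot be told apart.

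The release channel had the largest fitted difference of the 10 genes. *Ryr1* (Entrez 20190; chr7:29003344-29125179, minus strand, GRCm38) encodes the ryanodine receptor of skeletal muscle, through which calcium leaves the reticulum. Its level was 2535, 2346 and 2216 CPM in controls B, C and D, against 1475, 967 and 414 CPM in miDrp1KO A, E and F. Every miDrp1KO library was below the lowest control, and library F held less than any other. The mean was 2366 ± 160 CPM in controls and 952 ± 531 CPM in miDrp1KO (SD, n = 3 each), 40.2% of the control mean. The log2 fold change was −1.31 ± 0.39 (SE), with a 95% interval from −2.19 to −0.43 and an edgeR adjusted p of 0.379 (unadjusted p = 0.00763). The DESeq2 estimate was −1.33 with an adjusted p of 0.0101. An exact two-sided permutation test of the means gave p = 0.1, the smallest value that 3 against 3 libraries allow.

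The pore of the voltage sensor followed closely in size. *Cacna1s* (Entrez 12292; chr1:136052750-136119822, plus strand) encodes the alpha-1S subunit of the dihydropyridine receptor, which carries both the pore and the voltage-sensing segments. It was measured at 1394, 1324 and 1195 CPM in controls B, C and D and at 957, 509 and 340 CPM in miDrp1KO A, E and F. As for *Ryr1*, the groups did not overlap and library A lay nearest to the controls. The means were 1304 ± 101 and 602 ± 319 CPM (SD, n = 3 each), and the log2 fold change was −1.12 ± 0.34 (SE; edgeR adjusted p = 0.379, DESeq2 adjusted p = 0.0210).

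The junctophilins span the gap between the transverse tubule and the reticulum, and both genes were lower in every miDrp1KO library. *Jph2* (Entrez 59091; chr2:163336242-163397993, minus strand), the isoform that muscle shares with heart, was at 458, 419 and 531 CPM in controls B, C and D and at 337, 224 and 205 CPM in miDrp1KO A, E and F. It had the lowest unadjusted p of the 10 genes (0.00296), with a log2 fold change of −0.88 ± 0.23 (SE), an interval from −1.39 to −0.37 and an edgeR adjusted p of 0.362. DESeq2 gave −0.89 with an adjusted p of 0.0174. *Jph1* (Entrez 57339; chr1:16964560-17097889, minus strand), the isoform typical of skeletal muscle, was at 867, 996 and 1060 CPM in the controls and at 837, 467 and 510.4 CPM in miDrp1KO. Library A reached 837 CPM, just under the lowest control, whereas E and F were well below it. Its log2 fold change was −0.69 ± 0.26 (SE; edgeR adjusted p = 0.398, DESeq2 adjusted p = 0.0856).

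The DNA around the start sites of the 3 genes with the lowest miDrp1KO levels relative to control is shown because their transcripts are the ones the comparison turns on. RefSeq windows of 300 bases (250 before and 50 after a start site, GRCm38.p6) matched 5 of the 10 genes, in 7 windows, namely *Ryr1*, *Cacna1s*, *Cacna2d1*, *Cacnb1* and *Jph2*. Both strands were searched for the E-box CANNTG, which muscle regulatory factors such as MyoD bind, for the MCAT motif CATTCC of TEAD factors, for AAAGGTCA, a site bound by orphan nuclear receptors, and for the MEF2 and CArG motifs by name. Capitals mark the matches, and the sequences are written 5′ to 3′ on the strand of the gene.
*Ryr1*, chr7:29125102-29125401, minus strand: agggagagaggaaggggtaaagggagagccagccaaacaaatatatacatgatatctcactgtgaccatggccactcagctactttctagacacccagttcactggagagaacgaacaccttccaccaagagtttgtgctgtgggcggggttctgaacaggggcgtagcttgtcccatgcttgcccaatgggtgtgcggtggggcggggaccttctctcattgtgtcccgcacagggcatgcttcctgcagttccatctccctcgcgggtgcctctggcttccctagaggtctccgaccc
*Cacna1s*, chr1:136052561-136052860, plus strand: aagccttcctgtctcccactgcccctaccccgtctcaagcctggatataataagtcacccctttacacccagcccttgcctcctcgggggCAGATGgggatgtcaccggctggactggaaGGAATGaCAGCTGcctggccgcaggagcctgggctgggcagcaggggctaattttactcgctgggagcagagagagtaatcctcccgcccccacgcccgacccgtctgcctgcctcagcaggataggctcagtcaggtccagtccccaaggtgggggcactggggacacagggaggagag
*Jph2*, chr2:163397944-163398243, minus strand: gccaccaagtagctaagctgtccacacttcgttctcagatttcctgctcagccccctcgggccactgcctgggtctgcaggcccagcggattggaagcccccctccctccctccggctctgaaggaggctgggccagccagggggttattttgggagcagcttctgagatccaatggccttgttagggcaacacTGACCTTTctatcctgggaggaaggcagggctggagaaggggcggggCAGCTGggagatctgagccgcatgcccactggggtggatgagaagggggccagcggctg

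The *Ryr1* window held none of the 5 motifs. The *Cacna1s* window held 2 E-boxes with an MCAT motif between them, which do not overlap one another, and the *Jph2* window held 1 AAAGGTCA match on the opposite strand and 1 E-box. Both *Jph2* windows cover the same matches. The windows of *Cacna2d1* and 1 of the 2 of *Cacnb1* held none, and the other *Cacnb1* window held 1 E-box. Of the 32817 windows in the whole set, 72.3% held an E-box, 14.7% an MCAT motif, 1.51% AAAGGTCA, 3.19% a MEF2 motif and 1.63% a CArG motif. These matches describe letters only, since no binding was measured.

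**Figure D1:**
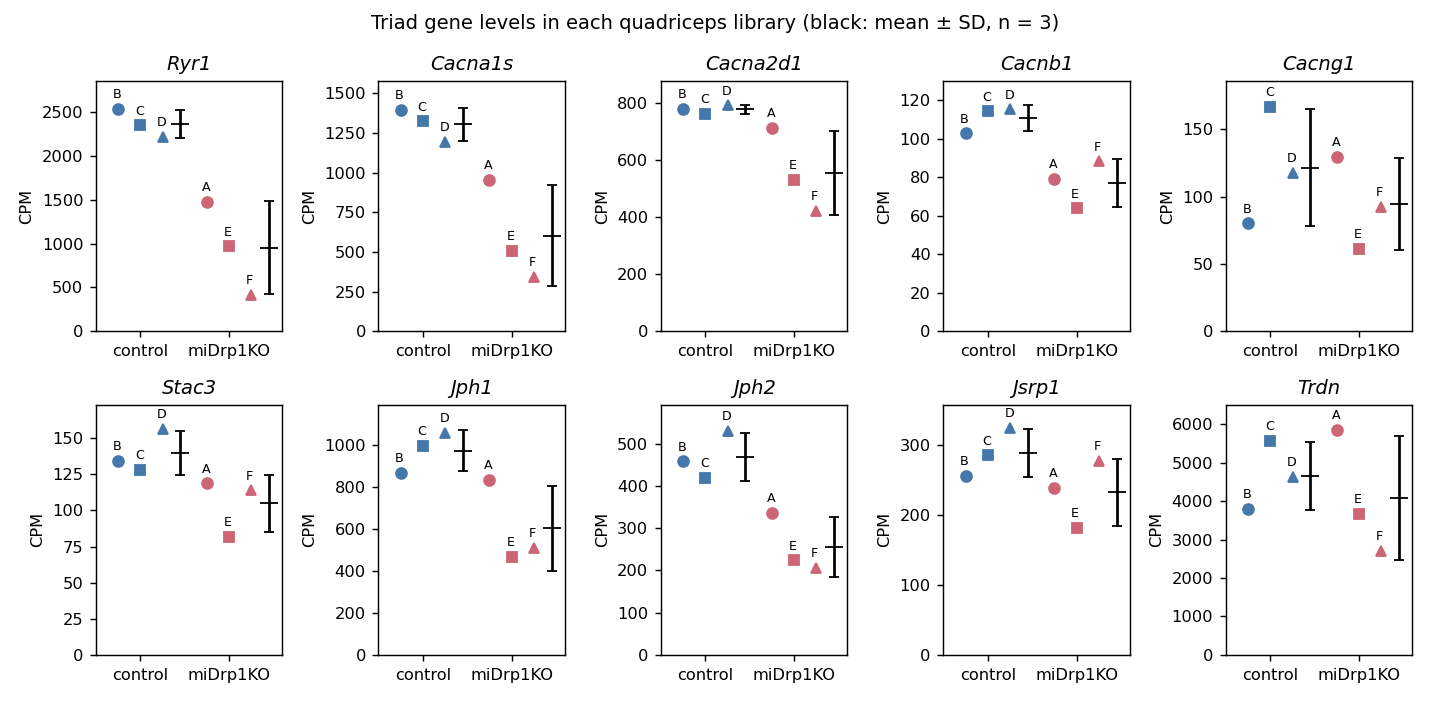
Level of each triad gene in CPM (y axis, from 0) in the 3 control (blue) and 3 miDrp1KO (red) quadriceps libraries, with letters for the libraries and black marks for the mean ± SD. *Ryr1* lies between 2216 and 2535 CPM in the controls and between 414 and 1475 CPM in miDrp1KO, whereas the groups overlap for *Cacng1*, *Jsrp1* and *Trdn*.

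The auxiliary subunits of the voltage sensor had smaller differences than its pore. *Cacnb1* (Entrez 12295; chr11:98001508-98023034, minus strand) encodes the intracellular beta-1 subunit, which brings the channel to the membrane. Its level was 103, 114 and 115 CPM in controls B, C and D, against 79.2, 63.9 and 88.3 CPM in miDrp1KO A, E and F, without overlap. Here E and not F was lowest, and the log2 fold change was −0.52 ± 0.18 (SE; edgeR adjusted p = 0.386).

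*Cacna2d1* (Entrez 12293; chr5:15934691-16374511, plus strand), the extracellular alpha-2-delta-1 subunit, was measured at 780, 762 and 791 CPM in the controls and at 712, 529 and 422 CPM in miDrp1KO. The controls differed by little (778 ± 14.98 CPM, SD, n = 3), and all miDrp1KO libraries were below them (554 ± 146 CPM). The log2 fold change of −0.49 ± 0.23 (SE) had an interval from −0.9997 to 0.02 and an edgeR adjusted p of 0.476, and it was −0.31 without miDrp1KO F and −0.69 without miDrp1KO A. *Cacng1* (Entrez 12299; chr11:107703218-107716522, minus strand), the gamma-1 subunit, varied most among the controls relative to its mean, at 80.1, 167 and 117 CPM, against 130 CPM in A, 61.4 CPM in E and 92.6 CPM in F. The groups overlapped, and the log2 fold change of −0.36 ± 0.33 (SE) had an edgeR adjusted p of 0.724. It was −0.083 without control C, −0.63 without miDrp1KO A and 0.073 with slow fibre markers as a covariate.

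*Stac3* (Entrez 237611; chr10:127501686-127508823, plus strand) encodes an adaptor that the voltage sensor needs in order to reach the triad and to open the release channel. It was at 134, 128 and 157 CPM in controls B, C and D and at 119, 81.9 and 114 CPM in miDrp1KO A, E and F. The groups did not overlap, although A and F were close to the lowest control. The log2 fold change was −0.41 ± 0.19 (SE), with an interval from −0.84 to 0.01 and an edgeR adjusted p of 0.467, and it was −0.27 without miDrp1KO E.

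*Jsrp1* and *Trdn*, which encode proteins that associate with the release channel or its store in the reticulum, had the smallest fitted differences of the 10 genes. *Jsrp1* (Entrez 71912; chr10:80808496-80813498, minus strand) encodes JP-45, which binds the voltage sensor and calsequestrin. It was at 256, 285 and 324 CPM in the controls and at 238.5, 182 and 277 CPM in miDrp1KO, where F lay within the control range (log2 fold change −0.31 ± 0.21, SE; edgeR adjusted p = 0.608). Without miDrp1KO E it was −0.16, without control D −0.20 and without miDrp1KO F −0.44.

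*Trdn* (Entrez 76757; chr10:33080554-33476709, plus strand) encodes triadin, which anchors calsequestrin to the release channel. Its level was 3799, 5558 and 4622 CPM in controls B, C and D, against 5856, 3670.2 and 2701 CPM in miDrp1KO A, E and F. Library A was the highest of the 6, and E and F were the lowest. Its log2 fold change of −0.19 ± 0.33 (SE) had an interval from −0.92 to 0.53 and an edgeR adjusted p of 0.863, and it was 0.050 without library F and 0.10 with slow fibre markers as a covariate. The mean in miDrp1KO was 87.5% of control for *Trdn*, 80.5% for *Jsrp1*, 77.9% for *Cacng1* and 75.1% for *Stac3*.

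**Figure D2:**
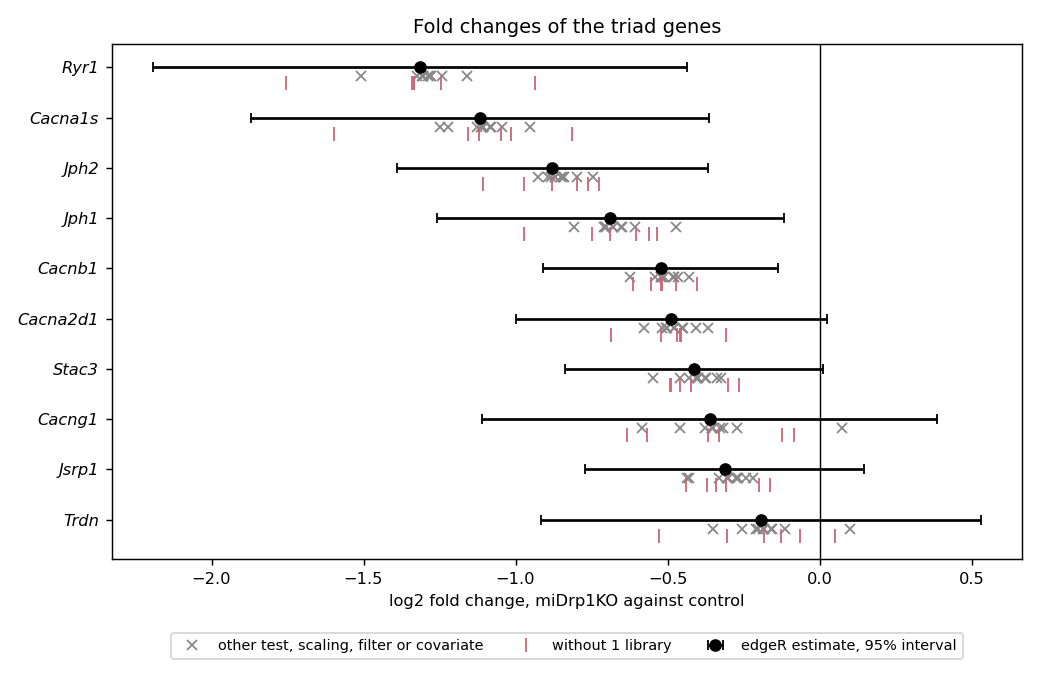
Log2 fold change of each triad gene, miDrp1KO against control (x axis), with the edgeR estimate and its 95% interval in black, the estimate under another test, scaling, filter or covariate as grey crosses, and the estimate without 1 library as red ticks. The intervals of *Ryr1*, *Cacna1s*, *Jph2*, *Jph1* and *Cacnb1* lie below 0, and estimates above 0 occur for *Cacng1* and *Trdn*.

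Per kilobase of exon, the level of *Trdn* in control muscle was 593 ± 112 CPM per kb (SD, n = 3), the highest of the 10 genes. *Jsrp1* followed at 252 ± 29.6, then *Jph1* and *Cacna1s* at 203 ± 20.4 and 203 ± 15.8, and *Ryr1* at 153 ± 10.4 CPM per kb. *Jph1* and *Cacna1s* did not differ beyond their spread. *Jph2* (110.3 ± 13.4), *Cacng1* (97.2 ± 34.8), *Cacna2d1* (92.7 ± 1.79) and *Stac3* (76.3 ± 8.26 CPM per kb) made up a lower range in which neighbours were within their spread, except that *Cacna2d1* and *Stac3* lay farther apart than their SDs. *Cacnb1* was lowest at 27.5 ± 1.72 CPM per kb. In miDrp1KO the mean was 61.6 CPM per kb for *Ryr1* and 93.9 for *Cacna1s*, while *Trdn* was at 519 and *Jsrp1* at 203 CPM per kb. The lengths count all annotated exon bases of a gene, so the total level per kb of a gene with several isoforms, such as *Trdn*, can be understated.

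Because these genes encode partners of the same complexes, ratios of their counts were taken within each library, where library size cancels. The ratio of *Jph1* to *Jph2* was 1.89, 2.38 and 2.00 in controls B, C and D, against 2.49, 2.09 and 2.49 in miDrp1KO A, E and F. The groups overlapped (difference of log2 ratios 0.17, exact two-sided permutation p = 0.2, adjusted over 4 ratios 0.267). *Ryr1* to *Cacna1s* was 1.82, 1.77 and 1.85 in controls and 1.54, 1.90 and 1.22 in miDrp1KO (difference −0.25, exact permutation p = 0.4, adjusted 0.4). This difference was −0.084 without miDrp1KO F and −0.41 without miDrp1KO E. A further 2 ratios were chosen after the levels had been seen and are given as descriptions. *Trdn* to *Ryr1* was 1.498, 2.37 and 2.09 in controls and 3.97, 3.80 and 6.53 in miDrp1KO, and *Cacna2d1* to *Cacna1s* was 0.559, 0.575 and 0.662 in controls and 0.744, 1.04 and 1.24 in miDrp1KO. In both of these, all miDrp1KO libraries were above all controls.

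**Figure D3:**
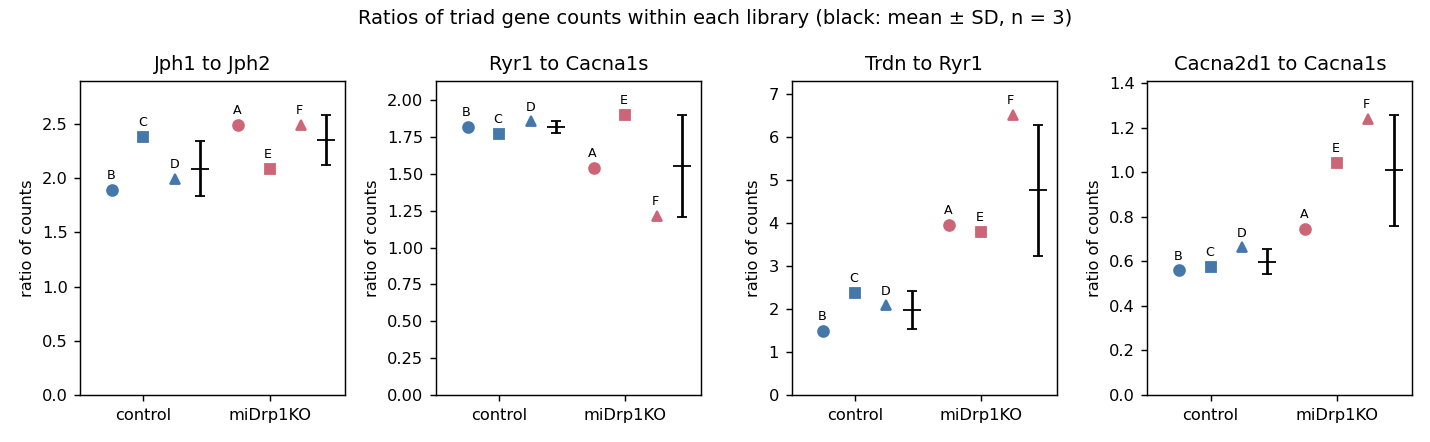
Ratio of the counts of 4 pairs of triad genes (y axis, from 0) in each control (blue) and miDrp1KO (red) library, with black marks for the mean ± SD. *Trdn* to *Ryr1* is 1.498 to 2.37 in the controls and 3.80 to 6.53 in miDrp1KO, and *Jph1* to *Jph2* overlaps between the groups.

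The miDrp1KO libraries differed among themselves. Set against the control mean of each gene on the log2 CPM scale, the median deviation of the 10 genes was −0.25 in library A, −0.86 in E and −0.83 in F, whereas it was −0.08, 0.01 and 0.04 in controls B, C and D. In A, 8 of the 10 genes were below the control mean, and in E and F all 10 were. Library E ranged from −1.36 for *Cacna1s* to −0.33 for *Trdn*. Library F ranged more widely, from −2.51 for *Ryr1* to −0.05 for *Jsrp1*. These deviations rest on the TMM factor that scales each library size, and a larger factor lowers every CPM. It was 0.846 in A, 1.419 in E and 1.043 in F, against 0.840 to 0.982 in the controls. The 10 genes took 0.907% of raw counts in A, 0.956% in E and 0.537% in F, against 0.873% to 1.187% in the controls. On this unscaled share only F lay below all controls. The part of the factor in the deviations of E was not tested.

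In library F the shortest gene deviated least and the longest most, without a steady order by length between them. *Jsrp1*, *Cacng1* and *Stac3*, at 1.15, 1.25 and 1.83 kb the shortest, were at −0.05, −0.33 and −0.29, and *Ryr1*, the longest at 15.4 kb, was at −2.51. *Cacna1s* (6.41 kb) was at −1.94, but *Trdn* (7.85 kb) and *Cacna2d1* (8.39 kb) were at −0.77 and −0.88. Of the genes of middle length, *Cacnb1* (4.03 kb) was at −0.33, *Jph2* (4.255 kb) at −1.19 and *Jph1* (4.81 kb) at −0.93. In library E the 3 shortest genes were at −0.66, −0.92 and −0.76, nearer to the others. After a correction for exon length and GC content in all libraries, the log2 fold change of *Ryr1* was −1.29, that of *Cacna1s* −1.11 and that of *Jph2* −0.85, and 8 of the 10 genes were lower at an unadjusted p under 0.05, against 9.24% of all genes in that fit. Without library F, *Ryr1* was at −0.94 and *Cacna1s* at −0.81.

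**Figure D4:**
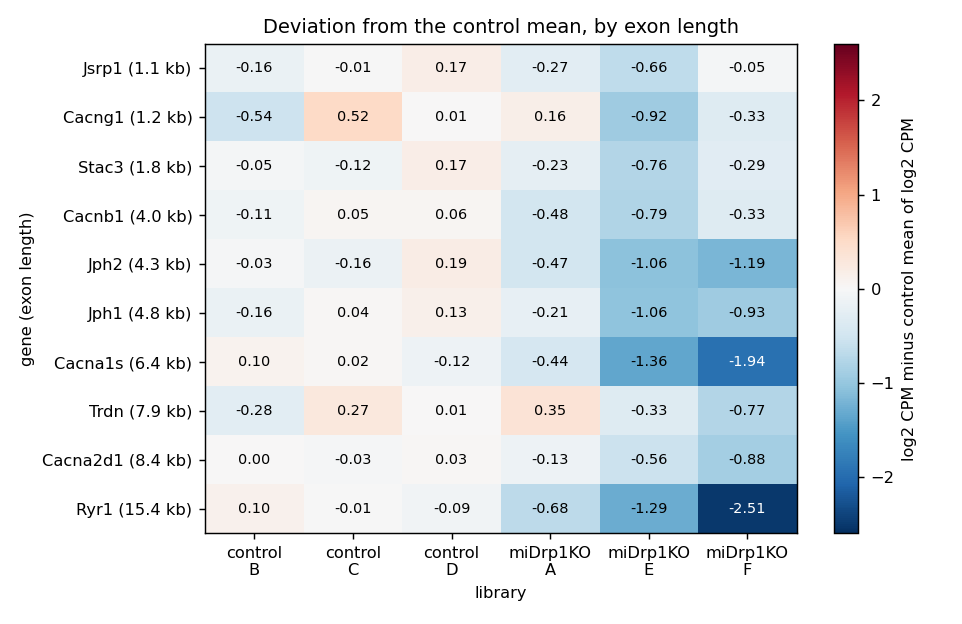
Log2 CPM of each triad gene minus its control mean (colour and printed value) in the 6 libraries, with genes ordered from the shortest to the longest exon length. Libraries E and F are below 0 for all 10 genes, and the lowest value is −2.51 for *Ryr1* in F.

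Since markers of skeletal muscle were also lower in miDrp1KO, the triad genes were expressed as a percentage of the summed level of the 12 markers, an analysis added after the levels had been seen. On this scale *Ryr1* was 0.811, 0.908 and 0.688% in controls B, C and D, against 0.615, 0.660 and 0.377% in miDrp1KO A, E and F, and it was the 1 gene with all miDrp1KO libraries below all controls. *Cacna1s* had a lower mean (0.443 ± 0.0709% against 0.352 ± 0.0448%, SD, n = 3 each) with overlapping groups. Only these 2 genes had a lower mean in miDrp1KO on this scale, and every other triad gene had a higher mean. *Jph2* was at 0.158 ± 0.00988% in controls and 0.160 ± 0.0241% in miDrp1KO. *Trdn* was above all controls in every miDrp1KO library (1.22, 2.15 and 1.43% against 2.44, 2.504 and 2.46%). *Cacna2d1* and *Stac3* were also above, but library A and control C nearly tied (0.297 and 0.295% for *Cacna2d1*, 0.04948% in both for *Stac3*). The groups overlapped for *Cacnb1*, *Cacng1*, *Jph1* and *Jsrp1*. Their means were 0.0376, 0.0422, 0.331 and 0.0977% in controls, against 0.0523, 0.0601, 0.378 and 0.159% in miDrp1KO, in that order. When the giant sarcomere genes *Ttn* and *Neb* were left out of the sum, no triad gene was below all controls, *Stac3* was above them, and *Ryr1*, *Cacna1s* and *Jph2* had lower means in miDrp1KO. The sum of the 12 markers was itself lower in every miDrp1KO library, which raises the percentage of any gene there. The share of all genes without overlap on this scale was not computed. The genes below or above all controls are therefore only descriptions.

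A wider list of 32 genes that build, regulate or refill the triad was measured in full. In miDrp1KO, 22 had a lower and 10 a higher fitted level (48.0% of all genes were lower), with a median log2 fold change of −0.29, and 12 were lower and 1 higher (*S100a1*, a calcium-binding protein, named after its values were seen) at an unadjusted p under 0.05, where the backgrounds are 6.22% for lower and 4.68% for higher genes. In 12 of the 32, every miDrp1KO library was below every control, against the background of 10.3%. None passed the edgeR adjusted threshold. DESeq2 passed 4 genes of this list and the list of paralogues below, out of 27 with an adjusted p and against the DESeq2 background of 2.14%, among them *Casq1*, and *Speg* and *Srl*, which are named after their values were seen.

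Among the genes of calcium storage and uptake, *Casq1*, the calsequestrin of fast muscle that buffers calcium beside the release channel, was at 1815, 1848 and 2508 CPM in controls B, C and D and at 1484, 1031 and 1242 CPM in miDrp1KO A, E and F. The groups did not overlap (log2 fold change −0.72 ± 0.25, SE; edgeR adjusted p = 0.392, DESeq2 adjusted p = 0.0449). *Casq2*, the calsequestrin of heart and slow muscle, was at 84.6, 15.5 and 20.4 CPM in controls and 37.5, 52.4 and 34.9 CPM in miDrp1KO (0.05, edgeR adjusted p = 0.989). *Hrc*, the histidine-rich calcium-binding protein of the reticulum, averaged 719 CPM in controls and 440.0 CPM in miDrp1KO, with overlap. *Atp2a1*, the calcium pump SERCA1 of fast fibres, was at 7442 ± 447 CPM and 4785 ± 1163 CPM (SD, n = 3 each; −0.64, edgeR adjusted p = 0.458). *Asph*, whose locus encodes junctin as well as an enzyme of another role, was at 424 and 377 CPM with overlapping groups (−0.17, edgeR adjusted p = 0.794).

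The other named genes of the wider list act in or on these membranes. *Ank1*, an ankyrin with a short muscle form in the reticulum membrane, was at 215 CPM in controls and 147 CPM in miDrp1KO. *Sypl2*, or mitsugumin 29, a protein of the triad membranes, was at 209 and 125 CPM, and *Bin1*, which curves membrane into tubules, at 469 and 317 CPM. *Dysf*, the membrane repair protein dysferlin, was at 57.6 and 37.4 CPM, and *Scn4a*, the sodium channel that carries the muscle action potential, at 295 and 162 CPM. In all 5 of these genes the miDrp1KO libraries were below the controls, with edgeR adjusted p between 0.382 and 0.407, but most of them were named for their low unadjusted p. *Cav3* and *Mtm1*, which also shape these membranes and were named after their values were seen, had overlapping groups (19.6 and 21.3 CPM for *Cav3*, 19.3 and 20.8 CPM for *Mtm1*, in controls and miDrp1KO).

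Of 25 paralogues of the triad genes, 20 passed the low-count filter, and *Cacng3*, *Cacng4*, *Cacng5*, *Cacng8* and *Jph3* did not. Among the 20, 13 had a higher and 7 a lower fitted level, beside the 48.0% of all genes that were lower, with a median log2 fold change of 0.23, and none passed the edgeR adjusted threshold. At an unadjusted p under 0.05, 4 were higher (*Ryr2*, *Cacna1b*, *Cacna2d2* and *Cacnb3*, named after their values were seen), where 4.68% of all genes tested were higher. At the same level 1 of the 20 was lower, *Cacna2d4*, at 8.93 and 5.18 CPM, where 6.22% of all genes tested were lower. The 4 higher ones averaged at most 2.68 CPM in either group. *Ryr3*, the other ryanodine receptor of skeletal muscle, was at 4.25 ± 0.648 CPM in controls and 3.92 ± 0.911 CPM in miDrp1KO (−0.13, edgeR adjusted p = 0.884). *Cacng6*, a gamma subunit found in muscle, was at 32.1 and 25.7 CPM without overlap (−0.32, edgeR adjusted p = 0.482).

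The annotation places genes on the opposite strand over exons of some triad genes, and the strand setting of the counting is not given in the sources used here. *Cacna1s* shares 1212 exon bases with *Gm37759*, *Ryr1* shares 299 with *Gm26604* and 50 with *Gm44408*, and *Jph1* shares 34 with *Gm28376*. The other 7 genes share no exon bases with another gene.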

How the data were processed

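RNA from quadriceps of 3 control and 3 miDrp1KO samples was sequenced as stranded, ribosomal RNA-depleted total RNA. The authors aligned the reads to the mouse genome (GRCm38), counted them per gene with Rsubread and deposited raw counts per gene with Entrez identifiers, 1 table per library, without normalization. Counts of the 16483 genes that passed edgeR's expression filter were fitted by genotype with edgeR 4.0.16 in R 4.3.3 (TMM scaling, robust quasi-likelihood test) and adjusted over all genes tested by Benjamini-Hochberg, with a threshold of 0.05. CPM values are counts scaled by the TMM-adjusted library size. Single values were compared by exact two-sided permutation tests.

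The members and gene lists were chosen with earlier results of these data known. The genes named are the 10 triad genes, *Dnm1l*, 8 fixed relatives, the 8 genes of the coupling and paralogue lists with the lowest unadjusted p, and the 5 genes most like the triad mean profile, besides those said to be named after their values were seen. An item that this rule names is not reported here. Positions and exon lengths come from the GENCODE annotation of GRCm38 and promoter windows from RefSeq (GRCm38.p6). Alternatives were DESeq2 1.42.0 (the study's tool), limma voom 3.58.1, other scalings and filters, leaving out ribosomal RNA genes, covariates for ribosomal RNA share or slow fibre markers, a correction for exon length and GC content (available for 14833 of the genes tested), and leaving out each library.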

Additional observations from a re-analysis of the deposited data

How the results depend on the processing

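No triad gene passed the edgeR adjusted threshold under any scaling, filter or covariate or without any single library (0 to 0 when a library was left out), nor by limma voom, while DESeq2 passed 3 (*Ryr1*, *Cacna1s* and *Jph2*). Over all genes, the number past the adjusted threshold was 2, and it was 113 by DESeq2, 8 without the low-count filter, 1 when the share of ribosomal RNA entered as a covariate, 4 with slow fibre markers entered in its place, and 1 (without miDrp1KO E) to 7 (without miDrp1KO A) when a library was left out. The number of triad genes at an unadjusted p under 0.05 was 5 (6.22% of all genes lower), and it was 8 with the length and GC correction (9.24%) and 3 to 7 when a library was left out (2.15% without control D to 8.9% without miDrp1KO A). All 10 had a lower fitted level in each alternative except with slow fibre markers as a covariate, where 8 did (*Cacng1* 0.073 and *Trdn* 0.10 on the log2 scale), and without miDrp1KO F, where 9 did (*Trdn* 0.050, from a range of −0.53 to 0.050 when a library was left out). The median log2 fold change was −0.60 when ribosomal RNA share was a covariate. It was nearest to 0, at −0.42, with slow fibre markers as a covariate and also with upper quartile scaling. When a library was left out, it ran from −0.66 (without miDrp1KO A) to −0.43 (without miDrp1KO E). Of the coupling genes and paralogues, DESeq2 passed 4 and edgeR 0. *Ryr1* ran from −1.76 without A to −0.94 without F, with adjusted p from 0.0101 to 0.877 over 16 alternatives. *Dnm1l* was −0.93 by DESeq2 (adjusted p = 0.00302) and −1.05 to −0.79 when a library was left out. When a library was left out, the difference of log2 ratios ran from −0.41 to −0.084 for *Ryr1* to *Cacna1s*, 0.11 to 0.27 for *Jph1* to *Jph2*, 0.99 to 1.39 for *Trdn* to *Ryr1* and 0.56 to 0.93 for *Cacna2d1* to *Cacna1s*. The cause of these movements was not tested. No paired analysis was run, because no pairing of control and miDrp1KO libraries is given in the sources used here.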

Other observations

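Among 7117 genes with a mean of at least 10 CPM, the genes whose profile over the 6 libraries was most like the mean of the 10 triad genes were *Hmga2-ps1*, a pseudogene that can share reads with its parent gene (Pearson r = 0.998), *Fxr1*, an RNA-binding protein of muscle (0.998), *Rac1*, a small GTPase that acts on the actin cytoskeleton (0.998), *Dpp8*, a dipeptidyl peptidase (0.997), and *Fbxo31*, a substrate receptor of a ubiquitin ligase (0.997). The points are 6 libraries that also differ in genotype, depth and ribosomal RNA share, and the genes were picked for their likeness, so that the values describe these libraries only.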
